A study of Mus musculus with 12 samples.

Results

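Genes that mark plasmacytoid dendritic cells (pDC) were examined in dendritic cell isolates of mice with and without a deletion of the TGF-beta receptor gene Tgfbr2. The set held 8 genes, namely Siglech, Bst2, Tcf4, Spib, Runx2, Pacsin1, Upb1 and Ly6d. A gene was measured where a probe set of the array carried its symbol and no other in the platform annotation, which gave 6 probe sets, 1 per gene, of 23332 in all. Spib and Runx2 had no such probe set and have no values here. RNA was hybridised to 12 Affymetrix Mouse Exon 1.0 ST arrays, 3 in each of 4 groups. The groups were splenic CD11c+ cells, taken by magnetic sorting, of Cre- control mice and of Cre+ mice with the TGFBR2 deletion, and CD11c+CD103+ cells that were flow-sorted from mesenteric lymph nodes (MLN), again of both genotypes. All mice were of the C57BL/6 background, cells were used without treatment, and each MLN array held a pool of 4 mice. The promoter that drives Cre, the alleles of the Cre- mice, the ages and the number of mice behind each spleen array are unknown here. For the MLN Cre+ arrays 1 descriptive field spoke of Cre- mice; the titles, sources and genotypes all gave Cre+ and were followed. Nothing in the labels says that the spleen arrays came from separate animals, so p-values measure the spread between these arrays, which may be technical.

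Plasmacytoid DC are the branch of the DC lineage specialised in producing type I interferon when viral nucleic acid reaches Toll-like receptors in their endosomes. Their identity rests on the E protein Tcf4 (E2-2), a transcription factor whose loss in mice removes the cells, and on partners such as the Ets factor Spib and the Runt factor Runx2. In the mouse spleen they carry low levels of CD11c, so that a CD11c+ magnetic isolate can hold some of them, while CD103 marks migratory conventional DC of the gut. Of the other genes, Siglech encodes a sialic acid-binding lectin of the pDC surface, and Bst2 encodes tetherin, an antiviral membrane protein that naive mice carry on pDC and that interferon induces in many other cells. Pacsin1 encodes an adaptor of endocytosis, Upb1 the beta-ureidopropionase of pyrimidine breakdown, and Ly6d a small surface protein that is also found on B lineage cells.

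The start regions of the 3 genes with the clearest genotype difference in spleen are shown because they let the letters near each start be read beside that gene's values. They are the 250 bases before the gene start from RefSeq, build GRCm38.p6, which held promoters for 6 of the 8 genes. Each is written 5′ to 3′ on the strand of its gene, with motif matches in capitals.
Siglech, chr7:55767934-55768183, plus strand: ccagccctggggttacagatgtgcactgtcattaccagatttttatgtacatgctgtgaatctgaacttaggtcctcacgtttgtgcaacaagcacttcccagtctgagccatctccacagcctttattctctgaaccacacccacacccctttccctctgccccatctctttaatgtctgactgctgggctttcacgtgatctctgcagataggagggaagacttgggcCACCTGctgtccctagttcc
Bst2, chr8:71537473-71537722, minus strand: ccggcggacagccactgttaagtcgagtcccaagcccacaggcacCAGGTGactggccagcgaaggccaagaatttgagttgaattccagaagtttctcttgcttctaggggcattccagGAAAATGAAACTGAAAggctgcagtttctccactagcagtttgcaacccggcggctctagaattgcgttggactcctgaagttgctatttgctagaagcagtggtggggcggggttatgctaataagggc
Upb1, chr10:75406661-75406910, plus strand: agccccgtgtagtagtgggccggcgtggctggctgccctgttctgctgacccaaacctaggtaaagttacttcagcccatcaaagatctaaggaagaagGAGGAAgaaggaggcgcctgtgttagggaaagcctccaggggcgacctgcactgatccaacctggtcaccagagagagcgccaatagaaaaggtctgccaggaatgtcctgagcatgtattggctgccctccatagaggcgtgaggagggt
The letters searched, on both strands, were GAAA, any 2 bases and GAAA for the interferon-stimulated response element, CAGGTG for an E box of the kind E proteins bind, and GAGGAA for the PU box of Ets factors such as Spib. The Bst2 window held 2 overlapping interferon-type matches, GAAAATGAAA starting 130 bases and GAAACTGAAA starting 124 bases before the gene start, and 1 E box 205 bases before it. The Siglech window held 1 E box, written CACCTG on the strand shown, 20 bases before the start. The Upb1 window held 1 PU box, 151 bases before the start. Of 32851 mouse promoter windows of the same length, 2.98% held the interferon-type motif, 17.2% the E box and 23.3% the PU box. The windows of Spib, Runx2 and Pacsin1 held none of these motifs. A match is a string of letters and not a measured binding site.

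The values are log2 expression values as the authors deposited them, made by robust multi-array averaging (RMA). The median array value was 7.03 to 7.08 for splenic and 6.74 to 6.89 for MLN arrays, and the SD across features ran from 2.37 to 2.42 and from 1.80 to 1.91, so the tissues carry different value distributions. Flt3, a receptor of the DC lineage, measured 11.35 ± 0.13 in spleen Cre- and 10.24 ± 0.37 in MLN Cre- (SD, n = 3 each), and Itgae, which encodes CD103, ranged from 6.68 to 7.19 and from 7.90 to 8.20. Itgae was thus higher in the CD103-sorted cells, by 1.06 (SE 0.202, adjusted p = 0.000603, limma). B cell markers were not low in either isolate: Cd79a lay at 12.56 ± 0.14 in spleen Cre- and 12.06 ± 0.075 in MLN Cre-. For Tgfbr2 itself the mean of spleen Cre- was 10.94 ± 0.021 and that of spleen Cre+ 10.70 ± 0.033, and the MLN means were 9.58 ± 0.080 and 9.46 ± 0.083 (SD, n = 3 each). Neither difference passed the threshold (adjusted p = 0.138 and adjusted p = 0.524, limma), and a gene-level value includes probes outside a deleted part.

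**Figure D1:**
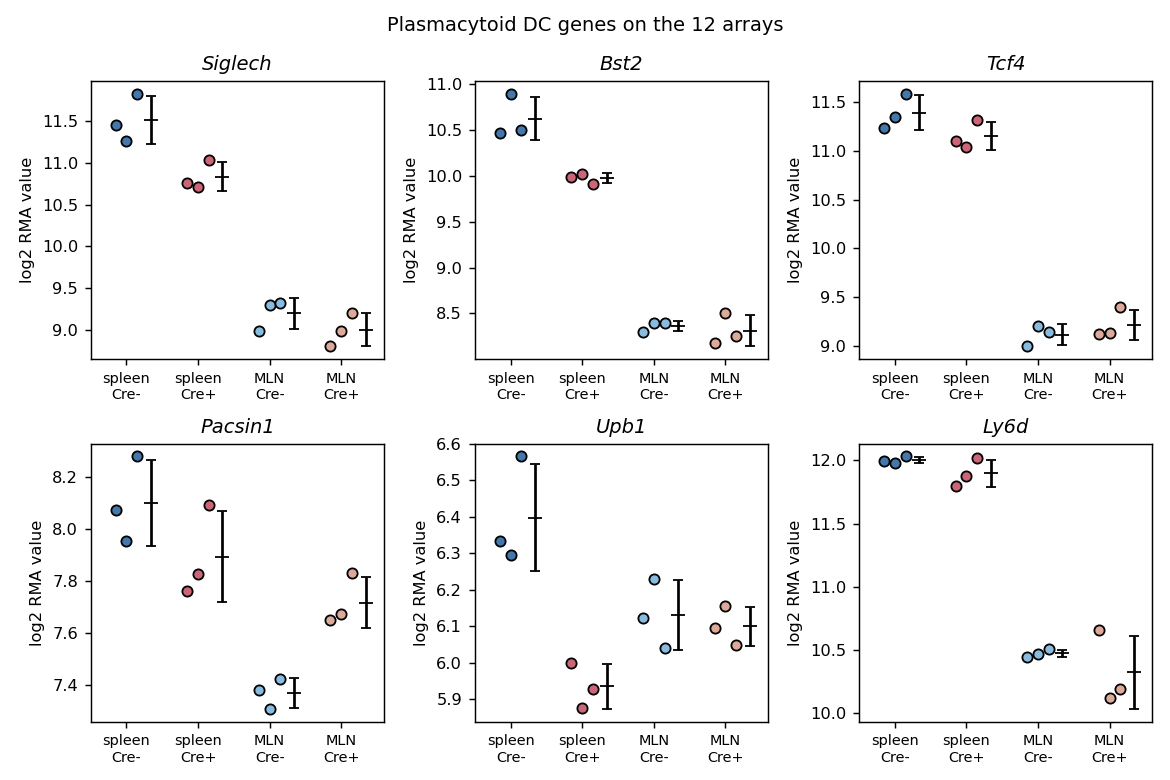
Log2 RMA value (vertical axis, a separate range in each panel) of the 6 measured pDC genes on each of the 12 arrays, with replicates 1 to 3 from left to right in each group and the mean ± SD beside them. Siglech, Bst2 and Upb1 of the 3 spleen Cre+ arrays lie below all 3 spleen Cre- arrays, and Siglech, Bst2, Tcf4 and Ly6d lie lower on every MLN array than on every spleen array of the same genotype.

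In splenic CD11c+ cells, all 6 measured pDC genes had lower mean values in Cre+ than in Cre- mice, and 2 of them, Bst2 and Upb1, fell at an adjusted p under 0.05 over all 23332 probe sets. Bst2 was at 63.7% and Upb1 at 72.5% of the control level, while Siglech was at 62.2% and just missed the threshold. Tcf4, Pacsin1 and Ly6d were at 84.8%, 86.6% and 92.9%. The median log2 difference of the 6 genes was -0.35, against 0.01 for all probe sets. Across the whole table, 2.17% of probe sets were called in this comparison, 0.93% as lower. In a bulk sample, fewer cells of a type and less RNA per cell cannot be told apart.

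Siglech, the lectin of the pDC surface, measured 11.46, 11.27 and 11.83 on the 3 spleen Cre- arrays and 10.76, 10.71 and 11.03 on the 3 spleen Cre+ arrays. The lowest control array lay above the highest Cre+ array, and replicate 3 was the highest of both groups. The group means were 11.52 ± 0.29 and 10.83 ± 0.17 (SD, n = 3 each). The log2 difference was -0.68 (SE 0.165, 95% interval -1.05 to -0.32, adjusted p = 0.0631, limma). It passed the threshold after quantile normalization over all arrays (-0.78, adjusted p = 0.0395), where 0.579% of probe sets were called as lower. It also passed with arrays shifted to 1 median (adjusted p = 0.0409), without dim probe sets (0.0373), with 1-symbol probe sets (0.0359), array weights (0.0082) and a replicate block (0.0277). It did not pass with a trended and robust variance (0.0532) or with spleen alone (0.168). In none of the 12 fits that left out 1 array did it pass, and the adjusted p there ranged from 0.0646 to 0.209.

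Bst2 measured 10.47, 10.90 and 10.50 on the spleen Cre- arrays and 9.98, 10.02 and 9.91 on the spleen Cre+ arrays. The Cre+ arrays lay within a narrow band, and the control group was spread mainly by its replicate 2. The means were 10.62 ± 0.24 and 9.97 ± 0.056 (SD, n = 3 each), so Bst2 fell by 0.65 on the log2 scale (SE 0.123, 95% interval -0.92 to -0.38, adjusted p = 0.027, limma). The call ended when spleen Cre- replicate 2 was left out (-0.51, adjusted p = 0.0625) and when any of the 3 spleen Cre+ arrays was (adjusted p = 0.0641, 0.0833 and 0.0691 without replicates 1, 2 and 3).

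Upb1, the enzyme gene, measured 6.33, 6.29 and 6.57 on the spleen Cre- arrays and 6.00, 5.88 and 5.93 on the spleen Cre+ arrays, again without overlap. Its means were 6.40 ± 0.15 and 5.93 ± 0.062 (SD, n = 3 each), a fall by 0.46 (SE 0.0918, adjusted p = 0.033, limma). The level is low on this array, at the 39.0th to 42.9th percentile of all probe sets in spleen Cre- and the 32.6th to 34.5th in spleen Cre+. The call ended without any 1 of the 6 spleen arrays (adjusted p from 0.0536 to 0.129) and without MLN Cre- replicate 1 (0.0502), MLN Cre+ replicate 1 (0.0509) or MLN Cre+ replicate 2 (0.056). It also ended after quantile normalization (-0.38, adjusted p = 0.08).

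Tcf4, the regulator of pDC identity, measured 11.24, 11.34 and 11.58 on the spleen Cre- arrays and 11.10, 11.04 and 11.31 on the spleen Cre+ arrays. The groups overlapped, and the difference was -0.24 (SE 0.121, 95% interval -0.51 to 0.03, adjusted p = 0.37, limma). Pacsin1, the endocytic adaptor, measured 8.07, 7.95 and 8.28 against 7.76, 7.83 and 8.09, a difference of -0.21 (SE 0.112, 95% interval -0.46 to 0.04, adjusted p = 0.401). Ly6d, shared with B lineage cells, measured 11.99, 11.98 and 12.03 against 11.80, 11.88 and 12.02. Its difference was -0.11 (95% interval -0.39 to 0.17, adjusted p = 0.757). That interval overlaps those of Bst2 and Siglech, and differences between genes were not tested. Among these 3 genes the Cre+ arrays reached into the range of the controls each time, in each case through Cre+ replicate 3.

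Non-overlapping groups were found for 3 of the 6 genes in spleen, each with Cre+ lower, where 9.37% of all probe sets had every Cre+ array below every Cre- array. Within the control group the genes moved together by array: replicate 3 was the highest of its group for 5 genes, the exception being Bst2, and replicate 2 the lowest for 4. In the spleen Cre+ group replicate 3 was the highest for 4 genes. The spleen genotypes also differed in the Y-linked gene Eif2s3y, with a mean of 9.91 ± 0.14 on the Cre- and 3.17 ± 0.14 on the Cre+ arrays (SD, n = 3 each), so that genotype and sex cannot be told apart for any spleen difference given here.

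**Figure D2:**
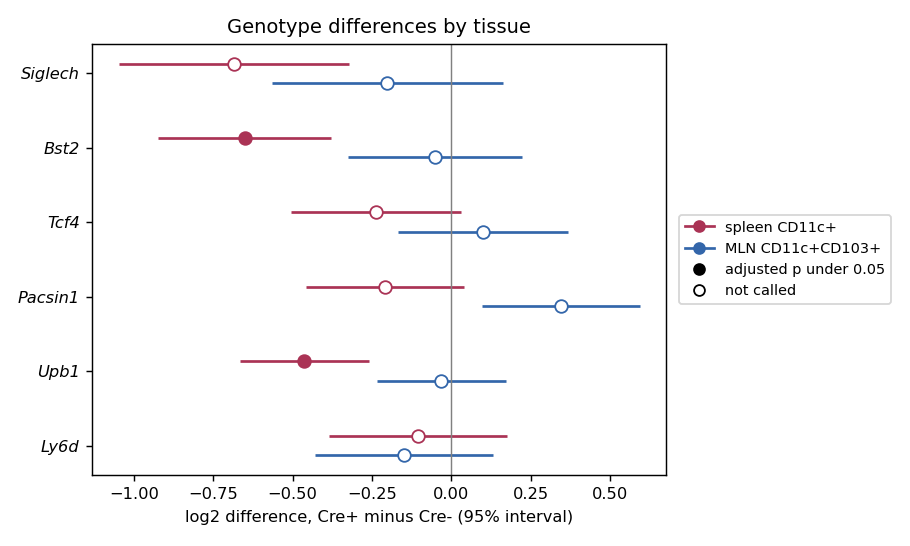
Log2 difference between Cre+ and Cre- mice (horizontal axis) with its 95% interval for the 6 pDC genes in spleen and MLN, filled where the adjusted p was under 0.05. The spleen points of Siglech, Bst2 and Upb1 lie between -0.68 and -0.46 with intervals below 0, while the interval of Pacsin1 in MLN lies above 0 without a call.

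In CD11c+CD103+ cells of the MLN, none of the 6 genes was called by limma between Cre+ and Cre- mice, and 1 of them, Pacsin1, had an unadjusted p under 0.05. Across all probe sets, 0.0857% were called in this comparison. The genes differed in direction, with 4 negative and 2 positive differences and a median of -0.04, against 0.08 for all probe sets; after quantile normalization 5 were negative and 1 positive. Siglech measured 8.98, 9.29 and 9.31 on the Cre- arrays and 8.80, 8.98 and 9.20 on the Cre+ arrays, with a difference of -0.20 (SE 0.165, 95% interval -0.57 to 0.16, adjusted p = 0.62). Bst2 measured 8.30, 8.40 and 8.40 against 8.17, 8.50 and 8.26, a difference of -0.05 (95% interval -0.32 to 0.22, adjusted p = 0.889). The arrays of both genotypes were interleaved for both surface genes.

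Pacsin1 stood at 7.38, 7.31 and 7.42 on the MLN Cre- arrays and at 7.65, 7.67 and 7.83 on the MLN Cre+ arrays, so every Cre+ array was above every control. The means were 7.37 ± 0.058 and 7.72 ± 0.099 (SD, n = 3 each), with a difference of 0.35 (SE 0.112, 95% interval 0.10 to 0.59, adjusted p = 0.337, limma). All Cre+ arrays above all controls was found for 13.4% of probe sets in MLN. Tcf4 measured 8.998, 9.21 and 9.15 against 9.13, 9.13 and 9.40, a difference of 0.10 (95% interval -0.17 to 0.37, adjusted p = 0.748) that was -0.06 after quantile normalization. Upb1 measured 6.12, 6.23 and 6.04 against 6.10, 6.16 and 6.05, a difference of -0.03 (95% interval -0.23 to 0.17, adjusted p = 0.914). These regulator and enzyme values overlapped between genotypes. Ly6d measured 10.44, 10.46 and 10.50 on the Cre- arrays and 10.66, 10.12 and 10.19 on the Cre+ arrays, and the Cre+ group split around the controls (difference -0.15, adjusted p = 0.634).

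The difference between the tissues in the size of the genotype effect was tested as an interaction. None of the 6 genes was called by limma, against 0.163% of all probe sets, and 3 had an unadjusted p under 0.05. The MLN difference minus the spleen difference was 0.60 for Bst2 (SE 0.175, 95% interval 0.21 to 0.99, adjusted p = 0.214), 0.55 for Pacsin1 (SE 0.159, adjusted p = 0.206) and 0.43 for Upb1 (SE 0.13, adjusted p = 0.225). For Siglech it was 0.48 (95% interval -0.03 to 1.00, adjusted p = 0.436), for Tcf4 0.34 (adjusted p = 0.457) and for Ly6d -0.04 (adjusted p = 0.947). A fall in spleen that differs from the MLN was therefore not shown for any of these genes.

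Other genes of pDC surface and secretion gave a mixed picture in spleen. Of 7 measured genes, 2 fell, 0 rose and 5 did not pass the threshold, with a median of -0.27. Of all probe sets, 0.93% fell and 1.24% rose in spleen. Ccr9, the receptor for the gut chemokine Ccl25, fell by 0.82 from 10.50 to 9.68 (SE 0.168, adjusted p = 0.0364), to 56.7% of control, and Cd300c, an immunoglobulin-type surface receptor, fell by 0.79 from 10.36 to 9.58 (SE 0.141, adjusted p = 0.0217). For both, every spleen Cre+ array lay below every control array, as for 9.37% of all probe sets. Cox6a2, a respiratory chain subunit gene found in pDC, had a difference in the opposite direction of 0.84 (SE 0.216, adjusted p = 0.0786), from 9.40 to 10.24. No gene of this list was called in MLN by limma, where 0.0857% of all probe sets were. An unadjusted p under 0.05 was found in MLN for 2 of the 7 genes, against 2783 of all 23332 probe sets. There Lag3, a receptor for MHC class II, had the smallest p, with 0.71 (SE 0.119, adjusted p = 0.081). Cox6a2 was next, with 0.62 (SE 0.216, adjusted p = 0.359), and every Cre+ array lay above every control for it in MLN as in spleen. Such an order was found for 13.4% of all probe sets in MLN and 12.4% in spleen. Havcr1, the next by p, had -0.14 (adjusted p = 0.723). The call of Ccr9 ended without any 1 of the 6 spleen arrays (adjusted p from 0.0541 to 0.138), MLN Cre- replicate 2 (0.0594) or MLN Cre+ replicate 2 (0.0583). That of Cd300c ended without spleen Cre- replicate 1 (0.0808) or 3 (0.051) and without spleen Cre+ replicate 1 (0.0641) or 2 (0.0904). With spleen fitted alone both adjusted p were above the threshold, at 0.0949 for Ccr9 and 0.117 for Cd300c.

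Regulators of pDC development were taken as a list of transcription regulators together with Flt3, the cytokine receptor named above. The list also holds Id2 and Nfil3, which are known to act against the pDC fate. Of 10 measured genes, 1 fell and 9 did not pass in spleen, where 0.93% of all probe sets fell. An unadjusted p under 0.05 was found for 4 of the 10 genes, against 3779 of all 23332 probe sets. In spleen 4 differences of the list were positive and 6 negative, with a median of -0.04. Zfp521, a zinc finger gene, fell by 0.47 (SE 0.102, adjusted p = 0.0443, limma), a call that ended after quantile normalization (adjusted p = 0.138) and stood in 1 of the 12 fits without an array. Zeb2, a repressor that pDC need, had -0.26 (adjusted p = 0.206), and Nfil3, also a regulator of the cDC1 branch of conventional DC, had 0.33 (adjusted p = 0.191). Irf8, a factor of both pDC and cDC1, had -0.21 (adjusted p = 0.26). In MLN all 10 differences were positive and none was called by limma, with a median of 0.26. After quantile normalization 7 differences were positive and 3 negative, with a median of 0.13. As deposited, 4 genes had an unadjusted p under 0.05 in MLN, against 2783 of all 23332 probe sets. The values there were 0.66 for Nfil3 (adjusted p = 0.0856), 0.47 for Zeb2 (adjusted p = 0.141) and 0.30 for Irf8 (adjusted p = 0.287).

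Genes of endosomal nucleic acid sensing, the input to interferon production in pDC, were measured for 9 of 10 listed members, and none was called by limma in either tissue. The unadjusted p was under 0.05 for 3 genes in spleen and 4 in MLN. The spleen median was 0.08, with 8 of 9 differences positive, and the MLN median 0.24, with all 9 positive. After quantile normalization the medians were 0.03 and 0.09, with 6 positive and 3 negative differences in each tissue. The sensor Tlr7 had 0.34 in spleen (SE 0.137, adjusted p = 0.249) and 0.61 in MLN (adjusted p = 0.177). Irf7, the interferon regulator, had 0.53 (SE 0.167, adjusted p = 0.139) and 0.67 (adjusted p = 0.216), and the adaptor Myd88 had 0.41 (adjusted p = 0.15) and 0.35 (adjusted p = 0.384). In both tissues every Cre+ array lay above every control for Tlr7 and Irf7, as was found for 12.4% of all probe sets in spleen and 13.4% in MLN.

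The fall of Bst2 in spleen stood beside rises of other interferon-induced genes. Of 12 measured members of a type I interferon list that did not hold Bst2, 6 rose, 0 fell and 6 did not pass, with a median of 0.59, where 1.24% of all probe sets rose. Oasl2, an antiviral gene of the oligoadenylate synthetase family, rose from 8.63 to 10.13, to 283% of control (SE 0.223 on the log2 scale, adjusted p = 0.0104). Rtp4 rose by 1.05 (SE 0.158, adjusted p = 0.0108), and Ifit2, which binds foreign RNA, rose by 0.87 (SE 0.123, adjusted p = 0.00924). The mean log2 level of the list lay between 8.23 and 8.35 on the spleen Cre- arrays and between 8.83 and 9.19 on the spleen Cre+ arrays, the reverse of the order of Bst2. Whether interferon, or the interferon-type letters shown above, act on Bst2 in these cells was not tested. After quantile normalization 3 of the 12 rose, Ifit2 not among them (adjusted p = 0.051), and 3 did so without spleen Cre+ replicate 2. In MLN none was called by limma, 8 had an unadjusted p under 0.05, the median was 0.40, and Oasl2 had 0.91 (adjusted p = 0.214).

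**Figure D3:**
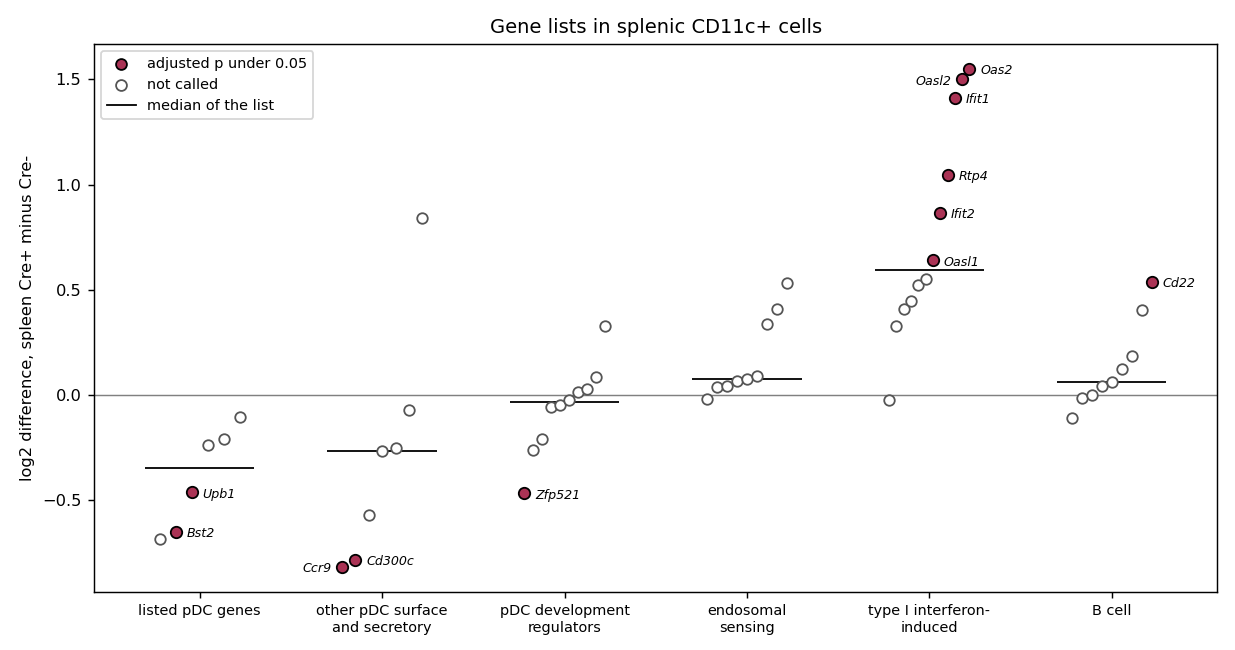
Log2 difference between Cre+ and Cre- mice in splenic CD11c+ cells (vertical axis) for each measured gene of 6 lists, filled and named where the adjusted p was under 0.05, with the median of each list as a line. The listed pDC genes all lie below 0, whereas 11 of the 12 type I interferon-induced genes lie above it.

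Markers of other cells that share some of these genes were set beside them. The mean log2 level of 9 B cell genes was 11.28 to 11.63 on the spleen Cre- arrays and 11.42 to 11.67 on the spleen Cre+ arrays. Spleen Cre- replicate 3, the highest control for 5 pDC genes, also had the highest B cell level of the controls. The same array was the highest control for the T cell list (9.55). It was barely the highest for the plasma cell list, at 8.8036 against 8.7998 for replicate 2. The same held for the cDC1 list, at 9.7818 against 9.7779 for replicate 1. Replicate 3 was the lowest control for the type I interferon (8.23) and core dendritic cell (11.45) lists. Replicate 1 was the highest control for the pDC regulator (10.84) and endosomal sensing (10.60) lists, and for genes of the cDC2 branch of conventional DC (9.85). Cd22, an inhibitory receptor of B cells, rose by 0.54 (SE 0.116, adjusted p = 0.0434), where 1.24% of all probe sets rose. The other 8 B cell genes did not pass the threshold. Cd22 was called in 1 of the 12 fits without an array and not after quantile normalization (adjusted p = 0.0685). Among 6 plasma cell genes none was called by limma and 0 had an unadjusted p under 0.05, with Mzb1, an endoplasmic reticulum gene that pDC also express, at 0.49 (adjusted p = 0.353). The mean level of these 6 genes was 8.46 to 8.80 on the Cre- and 8.86 to 9.07 on the Cre+ arrays of spleen, and that of 6 cDC1 genes was 9.71 to 9.78 and 9.93 to 10.21, so both lists stood higher on every Cre+ array. Among 7 T cell genes none was called by limma and 1 had an unadjusted p under 0.05, and their mean level ranged from 9.25 to 9.55 on the Cre- and from 8.74 to 9.94 on the Cre+ arrays of spleen. In MLN the B cell level was 10.47 to 10.65 on the Cre- and 10.60 to 10.72 on the Cre+ arrays. RMA values have no zero and no detection call, and the part of these cells in the pDC gene differences was not tested.

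Between tissues, pDC genes were called as lower in MLN CD11c+CD103+ cells than in splenic CD11c+ cells, all 6 in Cre- and 4 in Cre+ mice as deposited. The size of the gap was set by the scaling. In the deposited values of Cre- mice all 6 genes were called as lower in MLN without overlap, where 49% of all probe sets were called as lower and 49.7% had every MLN array below every spleen array, and after quantile normalization 5 were, where 29.7% of all probe sets were. As deposited, the median difference in Cre- mice was -1.90 for the 6 pDC genes and -2.04 for 8 genes of the cDC2 branch of conventional DC. It was -1.25 for the sensing, -1.14 for the cDC1 and -1.08 for the B cell genes, but 0.52 for the T cell genes. The median of all probe sets was -0.36. On this scale a lower level in MLN was thus not particular to pDC genes. The 2 tissues differ in sort, in pooling and in value distribution. They also differ in Y-linked genes: Eif2s3y had means of 9.91 in spleen Cre- against 7.42 in MLN Cre- (adjusted p = 0.000257, limma), and of 3.17 in spleen Cre+ against 7.60 in MLN Cre+ (adjusted p = 3.68e-06). Tissue cannot be told apart from any of these, sex included, nor can the interaction be told apart from sex. Siglech measured 9.20 ± 0.19 in MLN Cre- against 11.52 ± 0.29 in spleen Cre- (SD, n = 3 each). The gap was -2.32 (SE 0.165, adjusted p = 3.44e-07, limma) and became -1.21 (SE 0.147, adjusted p = 5.06e-05) after quantile normalization. On either scale its level in MLN was below that in spleen, at 20.02% and 43.2%.

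Bst2 differed by -2.26 (SE 0.123) as deposited and -1.20 (SE 0.14) after quantile normalization. Tcf4 differed by -2.27 (SE 0.121) and -1.16 (SE 0.109), and Ly6d by -1.53 (SE 0.127) and -0.48 (SE 0.139, adjusted p = 0.0115). Pacsin1 fell by 0.73 as deposited (adjusted p = 0.000124) and had -0.06 (adjusted p = 0.596) after quantile normalization, so its lower level in MLN rests on the scaling. Upb1 differed by -0.27 (adjusted p = 0.0209) and -0.32 (adjusted p = 0.00929), and turned to 0.03 (adjusted p = 0.803) when arrays were only shifted to 1 median. The rank of a probe set within its own array needs no scaling: Siglech held the 96.6th to 98.2th percentile on spleen Cre- arrays and the 89.3th to 91.7th on MLN Cre- arrays, and Pacsin1 the 62.4th to 66.0th and 62.2th to 64.1th.

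In Cre+ mice 4 of the 6 genes were lower in MLN than in spleen, where 45.2% of all probe sets were, and the same 4 did not overlap, where 45.8% of all probe sets lay lower without overlap. Siglech differed by -1.84 (SE 0.165), Bst2 by -1.66 (SE 0.123), Tcf4 by -1.93 (SE 0.121) and Ly6d by -1.58 (SE 0.127), and each stayed lower after quantile normalization, at -0.57 to -0.90, where 27.4% of probe sets were called as lower. Pacsin1 had -0.18 (adjusted p = 0.18) as deposited but was called as higher in MLN after quantile normalization, at 0.39 (adjusted p = 0.0049), where 30.6% of probe sets were. Upb1 had 0.17 (adjusted p = 0.128), with every MLN Cre+ array above every spleen Cre+ array, as for 28.3% of all probe sets, and -0.0082 after quantile normalization. The contrasts within Cre- and Cre+ mice share no arrays.

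**Figure D4:**
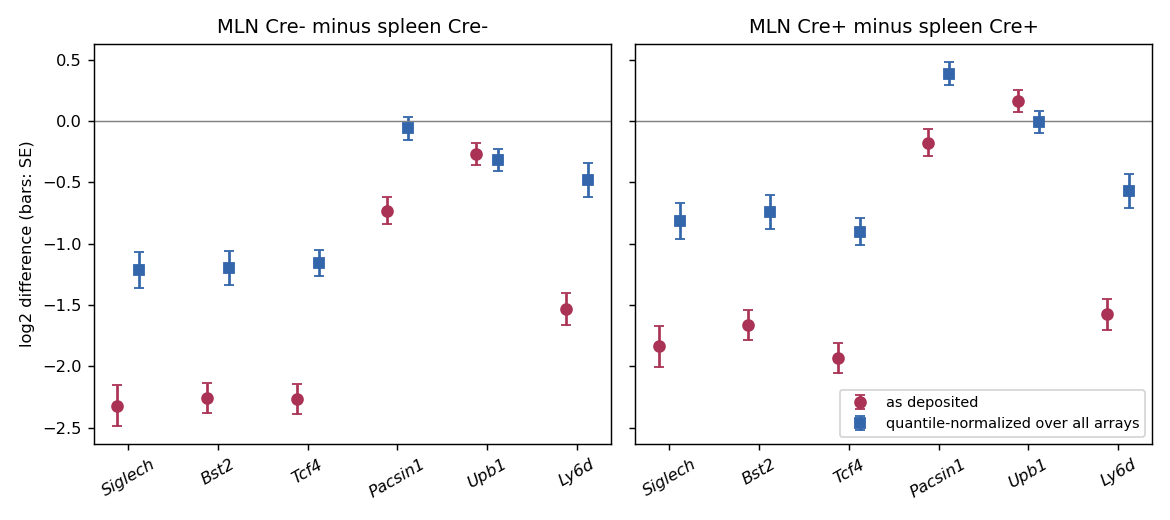
Log2 difference between MLN and spleen (vertical axis) of the 6 pDC genes in Cre- mice (left) and Cre+ mice (right), with bars for the SE, for the deposited values and after quantile normalization over all arrays. Siglech, Bst2, Tcf4 and Ly6d lie below 0 on both scales in both genotypes, and Pacsin1 in Cre+ mice lies at -0.18 on one and 0.39 on the other.

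By mean level over the 4 groups, Siglech, Bst2 and Tcf4 shared 1 order at the top: spleen Cre- was highest, then spleen Cre+, then the MLN groups. For Siglech the neighbours spleen Cre- and spleen Cre+ did not overlap, nor did spleen Cre+ and MLN Cre-, whereas the MLN groups overlapped. For Tcf4 the spleen groups overlapped and so did the MLN groups. Ly6d had the same order, and overlapping neighbours within each tissue. Pacsin1 ran from spleen Cre- at 8.10 through spleen Cre+ at 7.89 and MLN Cre+ at 7.72 to MLN Cre- at 7.37. Upb1 had its lowest mean, 5.93, in spleen Cre+, below MLN Cre+ at 6.10 and MLN Cre- at 6.13, and these last 2 overlapped. These orders of Pacsin1 and Upb1 are those of the deposited scale and turned after quantile normalization. Pacsin1 was then highest in MLN Cre+ at 7.998, followed by spleen Cre- at 7.80, MLN Cre- at 7.74 and spleen Cre+ at 7.61. Upb1 was then about level in MLN Cre+ at 6.01 and spleen Cre+ at 6.02. For Siglech, Bst2, Tcf4 and Ly6d the means kept spleen Cre- first, spleen Cre+ next and the MLN groups last.

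The likeness of other genes to Siglech was taken as Pearson's r over the 6 spleen arrays among 14995 other probe sets with 1 symbol. These arrays hold both genotypes, so r carries the group difference, and it is a description. The 5 genes most like Siglech were Erbb3, a receptor tyrosine kinase gene (r = 0.993), Atp1b1, a subunit of the sodium pump (0.992), Gna11, a G protein subunit (0.992), Smim5, a small membrane protein gene (0.989), and Rtn4rl1, a Nogo receptor relative (0.988). Of these Smim5 fell in spleen, by 0.72 from 8.54 to 7.82 (SE 0.146, adjusted p = 0.0354, limma), and Atp1b1 had -0.48 (SE 0.126, adjusted p = 0.087). Both were picked for likeness to Siglech on these same arrays, which favours a difference in its direction. Their p-values are therefore not separate support for a fall. Over the 6 MLN arrays r with Siglech was 0.83 for Atp1b1, 0.76 for Rtn4rl1, 0.61 for Smim5, 0.27 for Erbb3 and -0.08 for Gna11. Among the pDC genes r with Siglech in spleen was 0.95 for Upb1, 0.90 for Tcf4, 0.89 for Pacsin1, 0.79 for Ly6d and 0.66 for Bst2. In MLN the values were 0.46 for Tcf4, 0.42 for Bst2, -0.01 for Upb1, -0.17 for Ly6d and -0.34 for Pacsin1.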

How the data were processed

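Gene expression of 12 mouse dendritic cell samples was read from a table of gene-level log2 values, which the authors made with RMA in GeneSpring, per the labels. That the scale is log2 was read from the values. The build is not given in the sources used here. Among the 100 lowest values of each array, pairs within a tissue had a median of 7 in common and pairs across tissues 0, so the tissues were evidently normalized in separate runs. The number of arrays limits the precision.

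Of 23332 probe sets, 14996 had 1 symbol in the platform annotation, 1019 several and 7317 none. A model of 4 group means was fitted to all arrays in limma 3.58.1 (R 4.3.3), with 8 residual and 2.66 prior degrees of freedom. Tests were two-sided, adjusted by Benjamini-Hochberg over all probe sets, and called at 0.05. Of all probe sets, 3779 had an unadjusted p under 0.05 between genotypes in spleen, 2783 in MLN and 2845 in the interaction. The fit was tested on simulated data. Intervals are at 95%. Members and gene lists were chosen with earlier results of these data known, so lists are described by counts and medians. A gene with several probe sets entered a list by its highest mean. Named were the members, up to 3 genes of each list with the smallest p per tissue, a few defining markers, and the 5 genes most like Siglech; the plot of lists names every called gene. Alternatives were quantile normalization, leaving out dim probe sets, arrays shifted to 1 median, probe sets with 1 symbol, a trended and robust variance, array weights, a replicate block, 1 tissue alone and each array left out. Lists of cDC1 and cDC2 genes were also computed: by limma 0 of 6 cDC1 genes were called in either tissue (2 in spleen and 1 in MLN at an unadjusted p under 0.05), and among 8 cDC2 genes Clec4a4 rose and Mgl2 fell in spleen and Itgam rose in MLN. After quantile normalization the calls of Clec4a4 (adjusted p = 0.0642) and Mgl2 (0.107) ended; with 1 array left out, Clec4a4 was called in 5, Mgl2 in 3 and Itgam in 7 of 12 fits. Core dendritic cell genes had 0 of 5 called by limma in either tissue, where Zbtb46 had the smallest p in MLN (0.116 unadjusted).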

Additional observations from a re-analysis of the deposited data

How the results depend on the processing

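The pDC genes called in spleen numbered 2 in the fit reported, 4 with array weights, 0 when the splenic arrays were fitted alone, and 0 to 2 when 1 of the 12 arrays was left out; in MLN they numbered 0, but 1 with array weights, and in the interaction 0, but 3 with array weights, and both stayed at 0 without any 1 array. Array weights also raised the calls over all 23332 probe sets. These went from 507 to 2747 in spleen, from 20 to 966 in MLN and from 38 to 1007 in the interaction. In spleen, quantile normalization gave 286 calls and spleen alone 18, and leaving out 1 array gave 141 to 519. Directions turned for Bst2 in MLN with array weights (0.0303), Tcf4 in MLN after quantile normalization (-0.0603), Upb1 between tissues in Cre- mice after the shift to 1 median (0.0275), Pacsin1 between tissues in Cre+ mice after quantile normalization (0.39) and the shift (0.0407), and Upb1 there after quantile normalization (-0.0082). Leaving out arrays turned Bst2 in MLN (-0.15 to 0.0181), Upb1 in MLN (-0.0767 to 0.0185) and the interaction of Ly6d (-0.21 to 0.0574). The cause of these changes was not tested.

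Whether replicate numbers pair the samples was not settled, because deviations were correlated only for the same number and differently numbered pairs were not compared. The correlations were -0.14 to -0.0026 between the spleen groups. Between the MLN groups they were 0.20, 0.0015 and 0.31 for replicates 1, 2 and 3. With the replicate block 2 pDC genes were called in spleen, Bst2 and, in place of Upb1 (adjusted p = 0.0626), Siglech (adjusted p = 0.0277), with 0 in MLN, 0 in the interaction, and 6 and 4 between tissues, and the calls over all probe sets in spleen were 420. Other alternatives, namely the filter on dim probe sets (40th percentile, 6.37), probe sets with 1 symbol and a trended and robust variance, kept the spleen count at 2 or 3. The alternatives for the other lists were chosen after seeing the data: the type I interferon-induced genes that rose in spleen numbered 6 as reported, 3 after quantile normalization, 11 with array weights and 1 with spleen alone.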
